A study of Mus musculus with 1 sample.

Results

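The mRNAs that encode the subunits of the CCR4-NOT complex were examined for their level and their poly(A) tails in mouse epiblast-like cells (EpiLCs), 24 h after wild-type embryonic stem cells (ESCs) were set to differentiate. The members were the 10 genes Cnot1, Cnot2, Cnot3, Cnot4, Cnot6, Cnot6l, Cnot7, Cnot8, Cnot9 and Cnot10, chosen by name and not by any measured value. They held 858 of 701976 transcripts of nuclear genes read with at least 7 passes, and 10 of the 12816 nuclear genes detected. A pass is 1 reading of the circular cDNA molecule by the polymerase, and more passes give a more reliable consensus sequence. The 858 transcripts comprised 195 of the 4 catalytic genes (Cnot6, Cnot6l, Cnot7 and Cnot8) and 663 of the 6 non-catalytic genes.

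Tails were read by PAIso-seq, in which full-length transcripts are copied into cDNA with their tails and sequenced on the PacBio platform. The 1 sample came from wild-type cells labelled as ICR strain, induced for 24 h on Matrigel in N2B27 medium with activin A, bFGF and knockout serum replacement. It held 2 replicates with different barcodes, and since the labels do not tie a barcode to a replicate, the numbers 1 and 2 used here follow the barcodes. Cells without Cnot8 were not analysed here. With 1 group and 2 replicates no test between conditions could be made, so values are given by replicate, as mean ± SD of both, or pooled. The 95% Wilson intervals of shares and order-statistic intervals of medians cover counting error only, since the reads carry no molecular identifiers, and transcripts of 1 library are not replicates.

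CCR4-NOT removes adenosines from the 3′ end of mRNA tails, a step that usually precedes decay of the mRNA. Its large subunit Cnot1 is the scaffold on which the others assemble. It carries nucleases of a pair of types, the Ccr4 type (Cnot6 or Cnot6l) and the Caf1 type (Cnot7 or Cnot8), and one of each is present in a complex. RNA-binding proteins and the microRNA machinery recruit the complex to particular mRNAs.

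The libraries differed in depth and in the share of very short tails. Replicate 1 gave 246316 nuclear transcripts and replicate 2 gave 455660, of which 257 and 601 came from the members. Tails of 1 to 5 nt made up 1.52% of all nuclear transcripts in replicate 1 and 2.75% in replicate 2. Markers of the labelled cells were present: 4 of 4 pluripotency genes and 5 of 5 formative genes were detected, with summed levels of 268 and 173 transcripts per 100000 nuclear transcripts in replicate 1 and 365 and 137 in replicate 2. Of the 8 naïve genes, 7 were detected (96.2 and 119 per 100000), with Prdm14 at 0. Primitive endoderm, mesendoderm and fibroblast markers together gave 8 transcripts, with Gata4, Sox17, Pdgfra, Mixl1, Brachyury (T), Col1a1, Col1a2 and Postn at 0.

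The tails themselves show the forms found among these mRNAs. They are written 5′ to 3′ as they were deposited, with A in lower case and every other base in capitals. The first pair are tails of the median length of the Caf1-type nucleases Cnot7 and Cnot8, which hold no base other than A. The rest hold non-A bases, at the 3′ end or inside the tail, each taken as the first such read with at least 15 passes.
Cnot7, 69 nt, all A: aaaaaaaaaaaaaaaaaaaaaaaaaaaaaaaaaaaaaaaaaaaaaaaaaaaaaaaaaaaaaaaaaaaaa
Cnot8, 97 nt, all A: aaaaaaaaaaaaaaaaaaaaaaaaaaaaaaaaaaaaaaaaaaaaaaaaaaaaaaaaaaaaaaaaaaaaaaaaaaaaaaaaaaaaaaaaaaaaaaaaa
Cnot7, 19 nt, T at the end: aaaaaaaaaaaaaaaaaaT
Cnot8, 25 nt, inner G and T at the end: aaaaaaGaaaaaaaaaaaaaaaaaT
Cnot8, 51 nt, inner C: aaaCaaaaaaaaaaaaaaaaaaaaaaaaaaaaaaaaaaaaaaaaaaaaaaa
Cnot10, 30 nt, TT at the end: aaaaaaaaaaaaaaaaaaaaaaaaaaaaTT
Cnot9, 124 nt, TTT at the end: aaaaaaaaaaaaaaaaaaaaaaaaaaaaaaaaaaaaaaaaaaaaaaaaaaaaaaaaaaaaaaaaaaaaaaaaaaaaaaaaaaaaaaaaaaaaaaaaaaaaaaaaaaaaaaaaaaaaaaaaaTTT

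The levels of the subunit mRNAs were unequal. Each read stands for 1 transcript read to its tail, so levels were compared as transcripts per 100000 nuclear transcripts, with no division by length. How recovery depends on cDNA length was not tested. The scaffold Cnot1 (8390 nt, the longest annotated coding transcript) had 21.1 in replicate 1 and 27.2 in replicate 2, and Cnot2 (2800 nt), which pairs with Cnot3, had 17.9 and 27.4. Cnot10 (2853 nt) had 21.1 and 20.2, and Cnot9 (3268 nt), a subunit that binds recruiting proteins, had 17.5 and 21.3. These 4 non-catalytic mRNAs overlapped in their 95% intervals in each replicate. Of the nucleases, Cnot8 (2099 nt) had 14.6 and 17.3, Cnot7 (2982 nt) 3.65 and 7.02, Cnot6 (5736 nt) 4.87 and 5.05, and Cnot6l (8564 nt) 0.41 and 0.66.

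Cnot8 was the most abundant nuclease mRNA in both replicates. It supplied 115 of 195 catalytic transcripts, or 59.0% (52.0 to 65.6%), and its transcripts outnumbered those of its close relative Cnot7 by 4 times in replicate 1 and 2.47 times in replicate 2. The E3 ubiquitin ligase subunit Cnot4 (3473 nt) had 1.62 and 5.05 per 100000, and Cnot3 (2822 nt) had 1.62 and 0.66. A count of 3 transcripts, the limit that a count of 0 allows, correspond to 1.22 per 100000 in replicate 1 and 0.658 in replicate 2, so Cnot6l lay under or at that limit in both. The members as a whole had 104 (92.3 to 118) in replicate 1 and 132 (122 to 143) in replicate 2, a ratio of 1.26. The catalytic share of the members stayed at 22.6% and 22.8%.

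**Figure D1:**
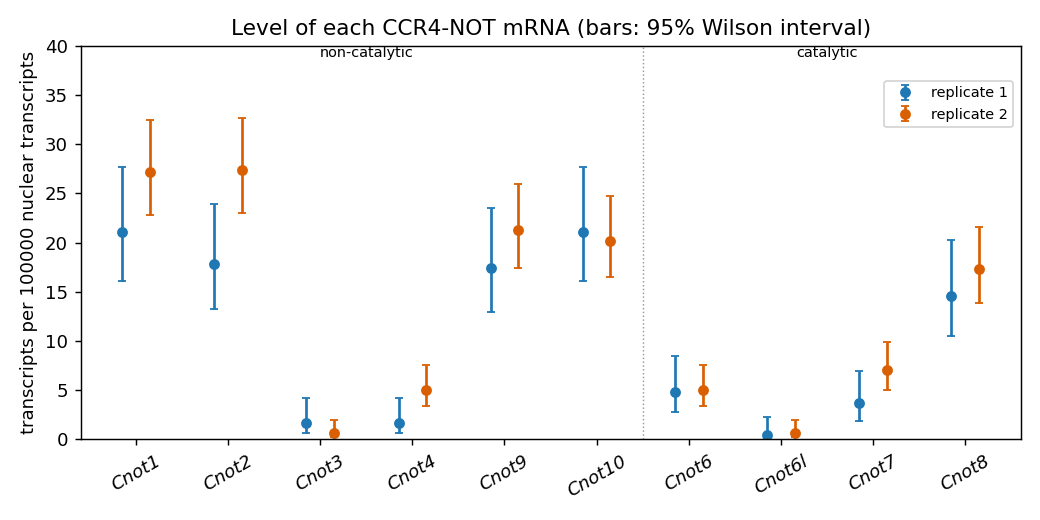
Level of each subunit mRNA in transcripts per 100000 nuclear transcripts, by replicate, with 95% Wilson intervals. Cnot8 stands above the other 3 nuclease mRNAs in both replicates, and Cnot3 and Cnot6l lie near 0.

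Tail length was summarised for each gene as the geometric mean over its transcripts, which weighs very short tails heavily. The scaffold gene Cnot1 (chromosome 8, 95719451 to 95807464, minus strand, GRCm38) had tails of 1 to 257 nt in 52 transcripts of replicate 1 and of 1 to 245 nt in 124 transcripts of replicate 2. Its geometric means were 66.0 and 44.9 nt, or 55.4 ± 14.9 nt (SD, n = 2). The median moved less, from 78 to 68 nt. Cnot1 was the second shortest of the 8 members with at least 10 transcripts, with 50.3 nt in the pooled reads.

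Cnot2 (chromosome 10, 116485161 to 116581511, minus strand) had the smallest SD of the geometric mean over the replicates among the 8 members. Its tails ran from 17 to 167 nt in 44 transcripts and from 1 to 206 nt in 125, with geometric means of 68.1 and 69.1 nt (68.6 ± 0.69 nt, SD, n = 2). Cnot10 (chromosome 9, 114585878 to 114640184, minus strand), which works with Cnot11, had 12 to 206 nt in 52 transcripts and 16 to 224 nt in 92. Its geometric means of 67.9 and 71.2 nt (69.5 ± 2.37 nt) lay beside those of Cnot2 in both replicates.

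Cnot9 (chromosome 1, 74506058 to 74530842, plus strand) had the longest tails by pooled geometric mean among the 8 members. The 43 transcripts of replicate 1 had 16 to 238 nt and a geometric mean of 77.9 nt, and the 97 of replicate 2 had 24 to 219 nt and 90.7 nt (84.3 ± 9.08 nt). Cnot9 exceeded Cnot8, the next in order, by 13.6 and 10.99 nt (12.3 ± 1.82 nt), and in replicate 1 it lay below Cnot6 (92.8 nt from 12 transcripts) and Cnot4 (153 nt from 4 transcripts). It exceeded Cnot10 by 10.01 and 19.5 nt and Cnot2 by 9.72 and 21.6 nt. The shortest tail of Cnot9 had 16 nt, and none of its 140 transcripts had a tail of 1 to 5 nt, which allows a share of up to 2.14%.

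Cnot4 and Cnot3 rested on few transcripts. Cnot4 (chromosome 6, 35022065 to 35133724, minus strand) had 102 to 199 nt in 4 transcripts of replicate 1 and 22 to 187 nt in 23 of replicate 2. Its geometric mean was 153 nt in the former, 62.3 nt in the latter and 71.1 nt pooled. The 7 transcripts of Cnot3 (chromosome 7, 3645268 to 3661109, plus strand) had tails of 56, 71, 100 and 173 nt in replicate 1 and of 1, 96 and 196 nt in replicate 2. No gene value was drawn from Cnot3.

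Among the Ccr4-type nucleases, Cnot6 (chromosome 11, 49671503 to 49712723, minus strand) had 12 transcripts of 8 to 183 nt in replicate 1 and 23 of 2 to 263 nt in replicate 2. Its geometric means were 92.8 and 59.5 nt (76.1 ± 23.6 nt), and its medians 143 and 95 nt. Cnot6 combined an ordinary geometric mean with a long median: the pooled geometric mean of 69.3 nt stood at percentile 36.6 of 7146 genes, and the pooled median of 119 nt (80 to 144 nt) at percentile 92.3. Cnot6l (chromosome 5, 96070333 to 96164171, minus strand) gave 1 tail of 141 nt in replicate 1 and tails of 33, 114 and 124 nt in replicate 2.

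The Caf1-type nucleases Cnot7 (chromosome 8, 40492540 to 40515847, minus strand) and Cnot8 (chromosome 11, 58104153 to 58118594, plus strand) differed in opposite directions between the replicates. The 9 Cnot7 transcripts of replicate 1 had 25 to 158 nt, and the 32 of replicate 2 had 1 to 182 nt. Their geometric means were 69.5 and 35.8 nt (52.7 ± 23.9 nt), and 41.4 nt pooled. The 36 Cnot8 transcripts of replicate 1 had 7 to 171 nt and a geometric mean of 64.3 nt, and the 79 of replicate 2 had 1 to 251 nt and 79.7 nt (72.0 ± 10.9 nt). The difference Cnot7 minus Cnot8 was 5.21 nt in the first and -43.9 nt in the other, so their order differed between the replicates. The pooled medians were 69 nt (43 to 118 nt) for Cnot7 and 97 nt (75 to 112 nt) for Cnot8, with overlapping intervals.

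**Figure D2:**
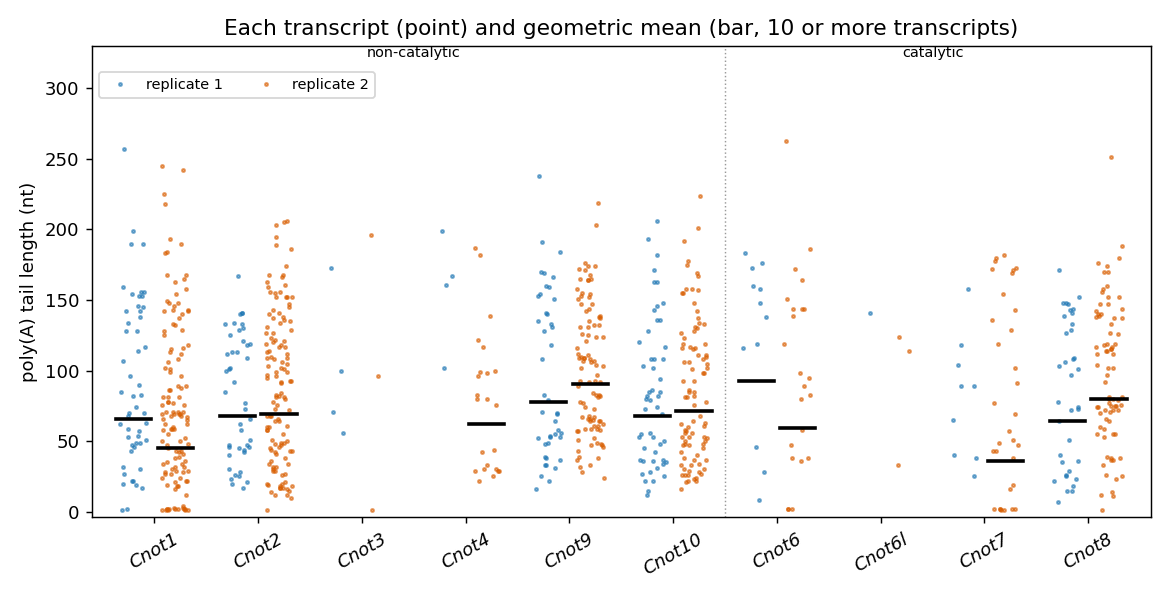
Poly(A) tail length in nt of each of the 858 transcripts, by gene and replicate, with the geometric mean as a bar where a gene had at least 10 transcripts in that replicate. Points at the bottom of the Cnot1, Cnot6 and Cnot7 columns are the tails of 1 to 5 nt, which pull the bars of replicate 2 down.

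In order of the pooled geometric mean, the genes ran Cnot9, Cnot8, Cnot4, Cnot10, Cnot6, Cnot2, Cnot1 and Cnot7. Of the neighbours in this order, Cnot9 and Cnot8 were the only ones whose difference in geometric mean exceeded its SD over the replicates. By the median, Cnot9 (71 nt) lay below Cnot8 (87.5 nt) in replicate 1. Cnot9 then lay above Cnot8 in replicate 2 (102 against 97 nt) and below it in the pooled reads (93 against 97 nt). By geometric mean, Cnot2 minus Cnot1, the widest later step, came to 2.16 and 24.2 nt (13.2 ± 15.6 nt). Cnot1 minus Cnot7 was -3.54 and 9.11 nt. Across 1073 nuclear genes with 30 or more transcripts per replicate and up to 200 in total, the replicates differed by a median of 8.91 nt, and 1 gene in 10 by over 22.5 nt. The shift of Cnot1, a fall of 21.1 nt from replicate 1 to replicate 2, lay inside that range. Of the 6 members with 10 or more transcripts per replicate, 2 (Cnot1 and Cnot6) were lower in replicate 2, beside 52.9% of all 4286 genes.

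Tails of 1 to 5 nt, which hold too few adenosines to bind the cytoplasmic poly(A)-binding protein, were concentrated in 3 genes. Of the 30 such tails, 17 were in Cnot1, 7 in Cnot7 and 3 in Cnot6, and the other 3 were spread over Cnot2, Cnot3 and Cnot8. In Cnot1 they made up 3.85% (1.06 to 12.98%) of replicate 1 and 12.1% (7.47 to 19.0%) of replicate 2. For Cnot7 they numbered 0 of 9 and 7 of 32 (21.9%, 11.02 to 38.8%), and for Cnot6 0 of 12 and 3 of 23 (13.04%, 4.54 to 32.1%). Over 5% of tails were that short in 3 of the 8 members measured, beside 17.7% of all 7146 genes, and Cnot4, Cnot9 and Cnot10 had no such tail, beside 56.7% of all genes. A gene with few transcripts can lack such tails by its count alone.

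The short tails came almost all from replicate 2, with 2 in replicate 1 and 28 in replicate 2. For all members the share was 0.78% (0.21 to 2.79%) and 4.66% (3.24 to 6.65%). All nuclear protein-coding transcripts had 0.99% and 2.55%. The share in all nuclear transcripts also differed between the replicates, and the part of the library in the members' difference was not tested.

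The short tails were mostly of 1 or 2 nt. Of the 30, 27 were that short (90%, against 78.1% of the 16279 such tails of all nuclear genes), and 29 held only A. Only 2 member tails had 6 to 9 nt. The short tails were read with a median of 36 passes, against 34 over all member transcripts, and 24 of them had at least 15 passes. A filter for at least 4 A in the first 8 bases, which the methods describe, leaves 1 of the 30, so what is said here of short tails rests on tails that were deposited but could not pass it.

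**Figure D3:**
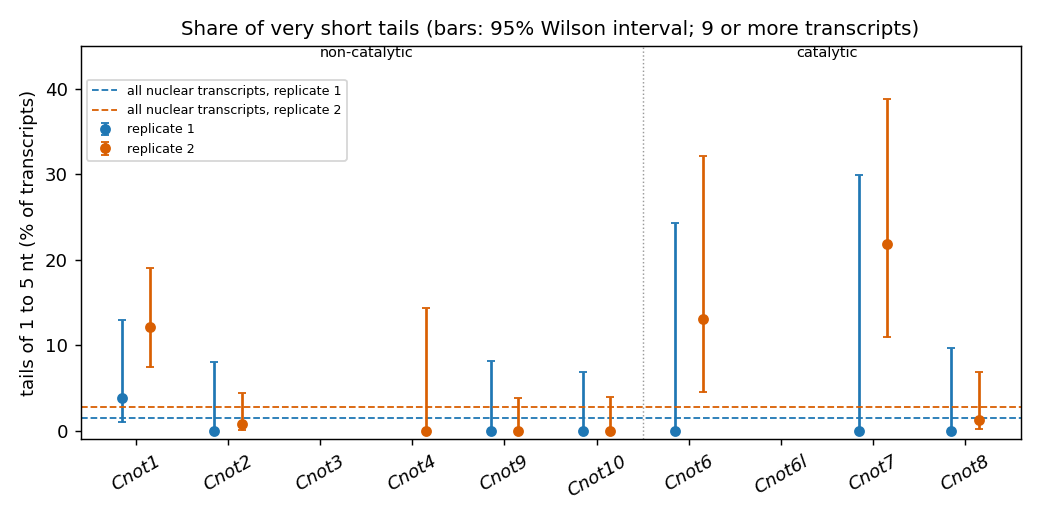
Share of tails of 1 to 5 nt in percent of a gene's transcripts, by replicate, with 95% Wilson intervals, for genes with at least 9 transcripts in that replicate. Dashed lines give the share in all nuclear transcripts. Cnot1, Cnot6 and Cnot7 of replicate 2 stand above the dashed line of their replicate with their whole interval, and the other members do not.

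Without the tails of 1 to 5 nt the order of the genes was different. The geometric mean of tails of at least 6 nt was 80.5 nt in Cnot7, 72.2 nt in Cnot1 and 96.6 nt in Cnot6, which then exceeded Cnot9 (86.5 nt). Cnot7 moved from percentile 7.19 of 7146 genes to percentile 48.3 of 7026 genes, and Cnot1 from percentile 12.1 to 28.5. Cnot10 (70.0 nt), Cnot4 (71.1 nt) and Cnot9 did not change, since they had no such tail. Cnot8 (77.4 nt) and Cnot2 (70.6 nt) each lost 1 tail.

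**Figure D4:**
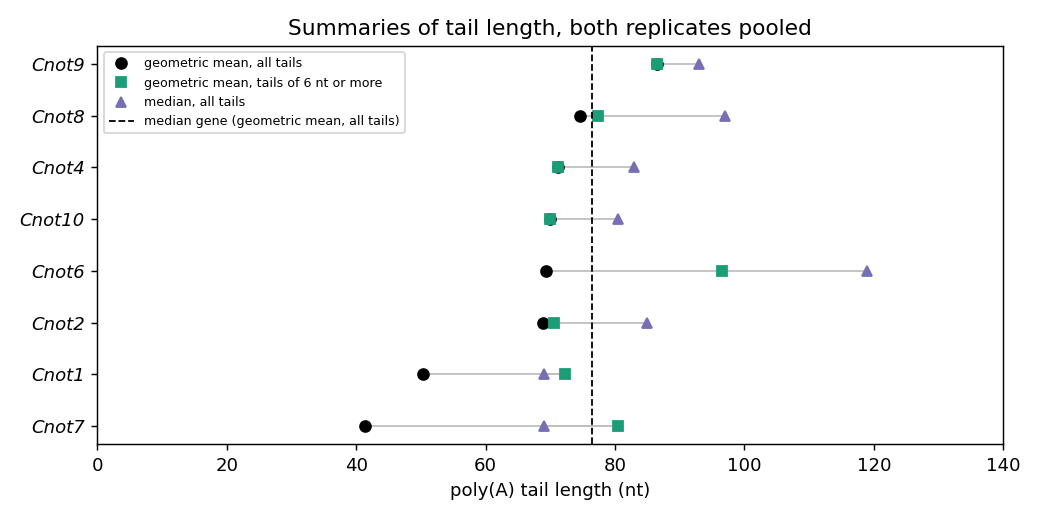
Poly(A) tail length in nt of the 8 members with at least 10 transcripts, both replicates pooled, as the geometric mean of all tails, the geometric mean of tails of at least 6 nt, and the median. The 2 geometric means coincide in Cnot9, Cnot4 and Cnot10 and lie farthest apart in Cnot7, Cnot6 and Cnot1; the dashed line marks the median gene at 76.4 nt.

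The catalytic and non-catalytic mRNAs were compared to ask whether the mRNAs of the nucleases and of the other subunits carry tails of different length. By geometric mean they were 71.2 and 71.0 nt in replicate 1 and 62.9 and 64.8 nt in replicate 2, a difference of -0.89 ± 1.48 nt (catalytic minus non-catalytic, SD, n = 2), which is smaller than its SD. The medians differed by more: 102 against 80 nt in replicate 1 and 91 against 81 nt in replicate 2, a difference of 16 ± 8.49 nt. Tails of 1 to 5 nt made up 0 of 58 catalytic and 1.01% of non-catalytic transcripts in replicate 1, and 8.03% and 3.66% in replicate 2. The pooled difference of -1.38 nt turned to 7.03 nt without Cnot7, and it was -8.50 nt without Cnot1, -12.7 nt without Cnot8 and -1.19 nt without Cnot4.

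**Figure D5:**
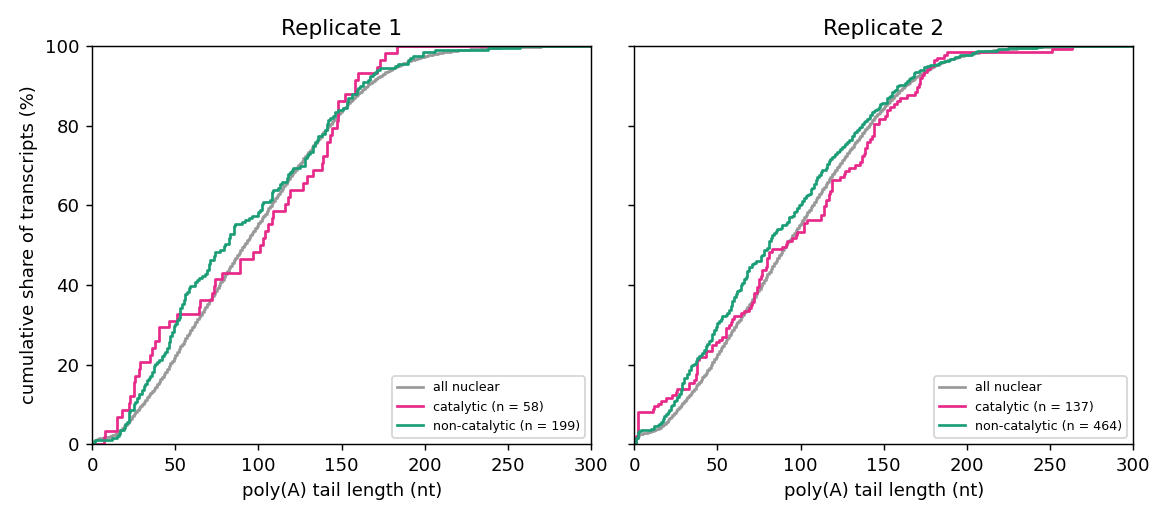
Cumulative share of transcripts in percent against poly(A) tail length in nt, for catalytic members, non-catalytic members and all nuclear transcripts, in each replicate. The catalytic curve of replicate 2 starts at 8.03% because of its tails of 1 to 5 nt, then runs below the non-catalytic curve over most lengths from about 50 to 150 nt.

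Beside all genes, the members had somewhat shorter tails. The median gene tail length of the 8 members was 69.6 nt (41.4 to 86.5 nt), and that of all 7146 genes was 76.4 nt (quartiles 62.4 to 88.6 nt), a difference of -6.75 nt. Within the replicates the difference was -9.99 nt over 6 members and -11.1 nt over 8 members. Of the 8 members, 7 had a tail length under 75 nt, beside 47.4% of all genes, and Cnot9 did not. Cnot8, at 74.5 nt, lay next to that limit, and 6 of 8 lay inside the quartiles of all genes. With tails of at least 6 nt, Cnot8 (77.4 nt), Cnot7 (80.5 nt) and Cnot6 (96.6 nt) also exceeded 75 nt. With such tails, 6 of 8 members lay below the median gene of 81.2 nt. By the median over transcripts in place of the geometric mean, the values were 84 nt for the members and 89 nt for all genes. Over all 7146 genes, the tail length was lower where the longest annotated transcript was longer (correlation, rho, -0.39). The part of transcript length in the members' difference was not tested.

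Over transcripts, the members had fewer long and more moderately short tails. Tails over 90 nt made up 46.3% (43.0 to 49.6%) of member transcripts and 50.6% of all nuclear transcripts. Among the 8 members with at least 10 transcripts they were most frequent in Cnot6 (60%), Cnot9 (52.1%) and Cnot8 (51.3%) and least in Cnot1 (35.2%). Tails of 16 to 30 nt made up 10.5% (8.61 to 12.7%) of member transcripts, with 12.1% in replicate 1 and 9.82% in replicate 2, and 6.83% of all nuclear transcripts. Their pooled share was 25.9% in Cnot4, 13.6% in Cnot2, 13.2% in Cnot10 and 13.1% in Cnot1. It was 7.83% in Cnot8, 7.32% in Cnot7, 3.57% in Cnot9 and 2.86% in Cnot6.

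Bases other than A were as frequent in the members as elsewhere. They occurred in 90 of 858 tails (10.5%, 8.61 to 12.7%), with 13.2% in replicate 1 and 9.32% in replicate 2, and in 10.5% of all nuclear tails, with 12.2% and 9.55%. T was found in 53 of the 90 tails, C in 26 and G in 17, and 20 tails held more than 1 such base. T, the cDNA letter for uridine, was the last base of 24 member tails (2.80%, against 3.06% of all nuclear tails). These lay mainly in tails of 16 to 30 nt, as in the printed tails of Cnot7, Cnot8 and Cnot10. Of 90 member tails in this length class, 14 ended in T (15.6%, 9.50 to 24.4%), against 0 of 148 (0 to 2.53%) in the class of 61 to 90 nt. All nuclear transcripts had 13.2% and 2.02% in the same classes. In the class of 6 to 15 nt, 2 of 15 member tails ended in T (13.3%, 3.74 to 37.9%), beside 24.9% of all nuclear transcripts. In that of 31 to 60 nt it was 3 of 178, beside 3.03%. Cnot7 had 4 such ends in 41 tails.

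Of 35 genes on the lists of complex partners, other deadenylases, recruiting proteins and tail-binding proteins, 32 were detected and 21 reached 10 transcripts. The tail length of 12 of the 21 was under that of the median gene, and their median was 72.7 nt. Btg4, Nanos2 and Nanos3 were at 0. By geometric mean, 9 of the 11 recruiting proteins lay below the median gene. Among them were the Pumilio protein gene Pum2 (52.1 nt, 105 transcripts) and Ythdf2, a reader of methylated adenosine (57.4 nt, 96 transcripts). Zfp36l2, which binds AU-rich elements, had 69.7 nt, and Ago2, the microRNA-guided protein, 72.7 nt. Tnrc6c had 74.96 nt (54.7 nt in replicate 1 and 91.4 nt in replicate 2), whereas the helicase gene Ddx6 had 115 nt from 38 transcripts. By the median over transcripts, Pum2 (63 nt) and Ythdf2 (78 nt) lay below the 89 nt of all genes. Zfp36l2 (93.5 nt), Ago2 (106 nt), Tnrc6c (96 nt) and Ddx6 (140 nt) lay above it.

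Of the 6 genes measured from the list of other deadenylases, 2 lay below the median gene. Noct had 59.8 nt, and its level differed widely between the replicates, with 33.7 transcripts per 100000 in replicate 1 and 220 in replicate 2. Pde12 had 80.9 nt and Toe1 90.7 nt. The poly(A)-binding protein genes Pabpc1 and Pabpc4 had 72.3 and 97.0 nt. The partners of the complex with at least 10 transcripts were Cnot11 (82.8 nt), which lay above its partner subunit Cnot10 (70.0 nt), and Btg1 (78.0 nt).

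The members were then set beside single genes. The distance between tail length distributions was taken as the largest gap between cumulative shares, over both replicates pooled and genes with at least 100 transcripts. The distribution of all member transcripts was most like those of Ccnb1 (gap 0.0295), Hspa5 (0.0324) and Psip1 (0.0355) among 1512 genes, with a median gap of 0.126. That of Cnot8 was most like those of Hnrnpu (0.0564), Kpnb1 (0.0564) and Hsph1 (0.0565) among 1516 genes, with a median gap of 0.141. The polyadenylation signal AATAAA, searched on the transcript strand in the last 40 nt of the longest coding transcript, was found in 8 of 10 members and in 63.0% of 6754 genes. Cnot1 and Cnot10 held neither it nor ATTAAA there, beside 77.6% of the 6754 genes that held either signal. The annotated transcript end was searched, not the end of the reads.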

How the data were processed

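PAIso-seq reads of 1 sample with 2 barcoded replicates were used. The authors made consensus reads, mapped them to mm10 with minimap2 (version 2.17), took the bases beyond the alignment as the tail and assigned genes with featureCounts (version 2.0.1), per the study's methods and processing notes. The deposited table, which was not normalized, lists per read its passes, the count of each base in the tail and the tail sequence. The base counts matched the sequence in all 1013675 reads. The share of reads with no gene was 15.1%.

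Tail length was the number of A plus non-A bases. Reads with at least 7 passes were kept, and genes with at least 10 transcripts were summarised by the geometric mean, following the study's methods. Mitochondrial genes were left out. The methods also describe a filter against tails with fewer than 4 A in the first 8 bases. The deposited table holds such tails, all 29 among the members being of 1 to 5 nt, and they were kept. Gene identifiers were matched to GENCODE vM21 (GRCm38), and 12955 of 12962 were found. Printed tails came from the deposited table. Depth was 246316 and 455660 nuclear transcripts.

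Named genes were all members, pathway genes with at least 30 transcripts (1 of them is not reported here), Btg1 and Cnot11 (named after their values were seen), and the 3 genes nearest in distribution. The members and lists were chosen with earlier results of these data known. Alternatives changed the pass filter, shortest tail, summary, first bases of the tail, wells (1 transcript in a well), genes compared and replicates. Scripts were tested on simulated data. The software was Python 3.11.15 with pandas 2.3.3, numpy 2.4.6, matplotlib 3.10.9 and scipy 1.17.1.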

Additional observations from a re-analysis of the deposited data

How the results depend on the processing

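No paired analysis was possible because the design has a single group. The members' median tail length of 69.6 nt was 67.0 nt with at least 15 passes, 74.8 nt with tails of at least 6 nt, 77.1 nt with tails of at least 15 nt, 84.0 nt by the median, 88.1 nt by the arithmetic mean, and 65.7 to 68.0 nt in single replicates. The difference from all genes of -6.75 nt kept its sign: it was -9.48 nt with at least 15 passes, -5.00 nt by the median, -5.69 nt by the arithmetic mean, -5.85 nt among protein-coding genes, and -11.1 to -9.99 nt in single replicates. The catalytic minus non-catalytic difference of -1.38 nt turned to 6.93 nt with tails of at least 6 nt (-2.72 nt in replicate 1 and 11.8 nt in replicate 2), 10.5 nt with at least 15 nt, 14.0 nt by the median, 5.78 nt by the arithmetic mean and 1.28 nt in wells with 1 transcript, and ranged from -1.94 to 0.16 nt in single replicates. In alternatives chosen after seeing the data it was 7.03 nt without Cnot7, -8.50 nt without Cnot1 and -12.7 nt without Cnot8. Also chosen then, equal weight for each gene with at least 10 transcripts, so without Cnot3 and Cnot6l, gave -8.57 nt. The requirement of 4 A among the first 8 bases, also added then, removes 29 of the 30 tails of 1 to 5 nt by its construction. With it this difference was 7.26 nt, the members' median tail length 74.3 nt and the share of 1 to 5 nt tails 0.12%. The difference from all genes was then -6.49 nt. The change with tails of at least 6 nt follows from the removal of the tails of 1 to 5 nt; the cause of the other changes was not tested. The share of 1 to 5 nt tails, 3.497%, otherwise moved within its SD of 2.74 percentage points, which is wide because the replicates gave 0.78% and 4.66%. For single members, 57 of 88 values moved by less than their SD over the replicates. That SD ran from 0.69 nt in Cnot2 to 64.0 nt in Cnot4, so the count does not measure how stable the values are. Removing tails of 1 to 5 nt could not change Cnot4, Cnot9 and Cnot10, which had no such tail. Cnot3, Cnot4, Cnot6l and Cnot7 had under 10 transcripts in at least 1 replicate.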

Other observations

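Reads with under 7 passes were left out above. They gave 82 further member tails, 8.72% of 940 member reads, with a median of 72 nt (59 to 96 nt) and 2 tails of 1 to 5 nt (2.44%, 0.67 to 8.46%).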
